A study of Mus musculus with 4 samples.

Results

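Nuclear receptors are the subject here: 28 genes of nuclear hormone receptors, taken by name from the 17230 rows of the count table. The members are the vitamin D receptor, 3 steroid receptors, 2 thyroid hormone receptors, 5 retinoid receptors, 4 receptors for sterols and fatty acids, and 13 receptors first described as orphans. All 28 had a row and passed the low-count filter. They were chosen by family and not by their values.

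Nuclear receptors are transcription factors that bind DNA through a pair of zinc fingers and, in many cases, are switched by a small lipophilic ligand such as a steroid, a vitamin or a thyroid hormone. Vitamin D, thyroid, retinoic acid, oxysterol and fatty acid receptors bind DNA together with a retinoid X receptor, while steroid receptors act as homodimers. In bone, vitamin D, oestrogen, glucocorticoid, thyroid hormone and retinoic acid all act on osteoblast-lineage cells, and the orphan receptors NR1D1 and NR1D2 are repressors of the circadian clock.

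RNA sequencing, treated here as bulk, was run on sorted femoral cells of mice aged 21 days after birth. Every mouse carried Cxcl12(GFP/+), which marks CXCL12-abundant reticular (CAR) cells of the marrow, and R26R(tdTomato/+), a permanent lineage mark, and had received tamoxifen at embryonic day 12.5. Recombination was driven by Hes1(CreER/+) in the Hes1-derived group (replicates 1 and 3) and by Fgfr3-iCreER in the Fgfr3-derived group (replicates 2 and 3), and the series title sets perichondrium against chondrocytes as the fetal origins. Hes1-derived cells thus carry a CreER allele at Hes1 and Fgfr3-derived cells a Cre expressed from Fgfr3, so genotype and origin cannot be told apart. The cell type labels name both fluorophores for the sort and the extraction protocol tdTomato alone, and whether 1 mouse or a pool gave each library is not recorded in the labels, so that p-values measure only the spread between these libraries.

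The Hes1-derived libraries held 22745128 and 23625327 counted reads and the Fgfr3-derived libraries 26025607 and 26804832. The reporter gene eGFP was present in all of them, at 6669 and 3204 CPM (read counts scaled to library size) in the Hes1-derived pair of libraries, against 9264 and 6754 CPM in Fgfr3-derived libraries. Genes of blood cells were also read, at unequal levels. The summed level of 14 pan-leukocyte markers was 6886 and 8008 CPM in the Hes1-derived pair, against 1945 and 4174 CPM in the Fgfr3-derived pair, 9 of the 14 were higher, and none was at 0 in any library. B lymphocyte (14 of 14) and erythroid markers (11 of 12) were also higher. Fewer were called among neutrophil (1 higher and 1 lower of 14), macrophage and monocyte (2 higher of 13) and T and NK cell markers (2 higher of 11). Neutrophil markers had the largest sums of these blood lists, at 28722 and 34008 CPM in the Hes1-derived pair, against 12021 and 25251 CPM in the Fgfr3-derived pair. Of 15 osteoblast markers 10 were lower, with sums of 6382 and 5976 CPM in the Hes1-derived pair, against 30793 and 35906 CPM in the Fgfr3-derived pair. In bulk samples fewer cells of a type and less RNA per cell cannot be told apart, and the part of these cells in the receptor values below was not tested.

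In Hes1-derived cells 7 of the 28 receptors were lower than in Fgfr3-derived cells and none was higher. The 7 were Vdr, Rarg, Nr1h3, Nr1d1, Nr1d2, Nr2c1 and Nr2f6, that is, 25% of the members. Over all 14330 genes tested 6.56% were lower and 5.24% higher (edgeR quasi-likelihood test, Benjamini-Hochberg adjusted p under 0.05), and DESeq2 called the same 7 receptors, against 10.9% of all genes lower and 9.97% higher with that tool. The median log2 fold change (Hes1-derived over Fgfr3-derived) was −0.71 over the receptors and −0.02 over all tested genes, and 23 of the 28 receptors had a negative value. In 16 receptors both Hes1-derived libraries lay below both Fgfr3-derived libraries (57.1% of the members, against 32.1% of all tested genes), in 1 receptor, Nr3c1, they lay above (29.8% of all tested genes), and in 11 the groups overlapped.

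The count of calls changed with the libraries used. Without Hes1-derived replicate 1 the 7 calls became 4, without Hes1-derived replicate 3 they became 1 (Vdr), and without Fgfr3-derived replicate 2 they became 2 (Vdr and Nr2f6). Scaling to 25 reticular stroma genes and scaling to eGFP reads move every gene by about the same amount, and raised the median of all tested genes by 0.58 and 0.86. The receptor median then was −0.09 with stroma and 0.16 with eGFP scaling, and no receptor passed in either direction. Of all genes 7.65% passed with stroma scaling, 0.921% lower and 6.73% higher, and 2.39% passed with eGFP scaling, 0.133% lower and 2.26% higher. Of the 28 values 23 were negative with the usual scaling, 15 with stroma scaling and 11 with eGFP scaling. These signs follow from that common shift, under which the receptor median lay −0.68, −0.65 and −0.67 from the median of all genes with the 3 scalings. A common shift leaves this distance nearly unchanged, so the 3 values are not separate results. Standard errors also widened, for Vdr from 0.20 to 0.58 with stroma and 0.75 with eGFP scaling. A call could therefore end where the fold change grew, as for the coregulator gene Ncoa4 (1.39, and 2.21 with eGFP scaling). Of the 26 reticular stroma genes listed, 25 of which set the stroma scaling, 23 had a negative value with the usual scaling (median −0.59).

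**Figure D1:**
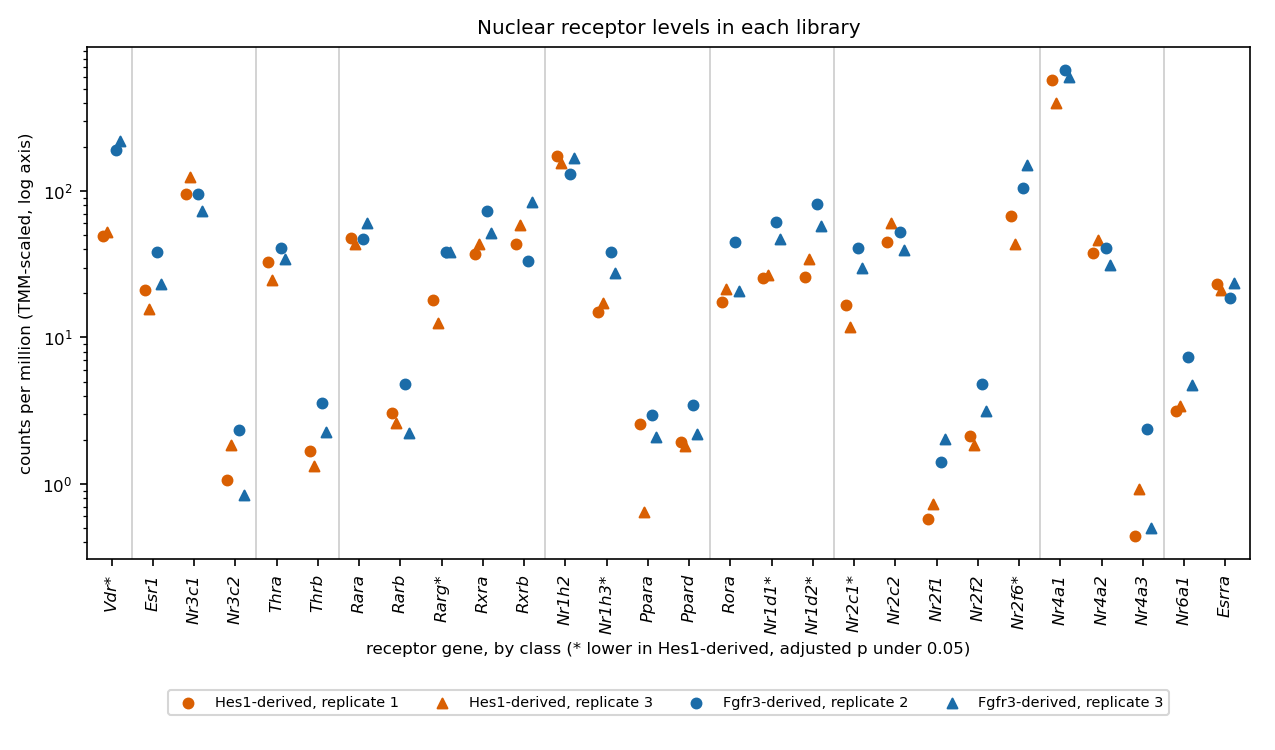
Level of each receptor gene in CPM (log axis) in the 2 Hes1-derived libraries (orange) and the 2 Fgfr3-derived libraries (blue), grouped by receptor class with grey lines between classes. Vdr shows the widest separation of the groups, with 49.3 and 52.6 CPM in the Hes1-derived pair, against 191 and 218 CPM in the Fgfr3-derived pair, while Nr4a1 is the most abundant receptor in all 4 libraries.

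The vitamin D receptor gene Vdr (chr15:97854425-97910630 on the minus strand, build GRCm38) was the member with the largest fold change. Its product binds the active form of vitamin D and regulates calcium handling and mineralization genes in osteoblast-lineage cells. Vdr had 49.3 and 52.6 CPM in Hes1-derived replicates 1 and 3, against 191 and 218 CPM in Fgfr3-derived replicates 2 and 3. The groups were far apart compared with the spread inside them: the lower Fgfr3-derived library was 3.63-fold above the higher Hes1-derived one, while libraries of the same group differed 1.07-fold and 1.14-fold. Vdr was 4.01-fold lower in Hes1-derived cells (log2 fold change −2.00 ± 0.20, SE; adjusted p = 0.013). It was the single receptor that passed in all 4 fits that left out a library, with log2 fold changes of −2.08 to −1.86. Osteoblast marker levels were lower in the same libraries, and their part in the Vdr difference was not tested. The call ended with stroma scaling (−1.44 ± 0.58, adjusted p = 0.105) and with eGFP scaling (−1.15 ± 0.75, adjusted p = 0.405).

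The stretch of 250 bases before the RefSeq start of Vdr (chr15:97908297-97908546, minus strand, RefSeq on GRCm38.p6) is shown because Vdr changed most. It was searched on both strands for the nuclear receptor recognition hexamer AGGTCA, the E-box CACGTG and the cAMP response element TGACGTCA. None of these was in the window, so it has no capitals.
Vdr: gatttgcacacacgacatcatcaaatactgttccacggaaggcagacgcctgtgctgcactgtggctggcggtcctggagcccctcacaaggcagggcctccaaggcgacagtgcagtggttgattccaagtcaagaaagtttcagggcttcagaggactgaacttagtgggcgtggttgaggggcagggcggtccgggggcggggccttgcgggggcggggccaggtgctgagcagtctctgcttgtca

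Ratios within a library do not depend on how libraries are scaled. Per kilobase of exon, Vdr stood at 1.55 and 1.42 times Rxra, the gene of its dimer partner retinoid X receptor alpha, in the Hes1-derived pair, against 3.05 and 4.91 times in the Fgfr3-derived pair. The ratio of Vdr to Rxrb, the gene of retinoid X receptor beta, was 0.749 and 0.592 in the Hes1-derived pair, against 3.80 and 1.70 in the Fgfr3-derived pair. For both partners every Hes1-derived ratio was below every Fgfr3-derived ratio. Relative to the reporter the order was the same, with 7.40 and 16.4 reads per 1000 eGFP reads in the Hes1-derived pair, against 20.6 and 32.2 in the Fgfr3-derived pair.

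Of 14 tested genes of vitamin D metabolism and response, 6 were lower and 1 was higher in Hes1-derived cells, with a median log2 fold change of −1.22. Over all tested genes 6.56% were lower and 5.24% higher. Spp1, Bglap and Phex, 3 of the 14, are also among the 15 osteoblast markers given above, and the part of osteoblast cells in this list was not tested. Spp1, which encodes the matrix protein osteopontin, had 578 and 454 CPM in the Hes1-derived pair, against 6382 and 7193 CPM in the Fgfr3-derived pair (−3.72 ± 0.36, adjusted p = 0.013). The pyrophosphate-generating enzyme gene Enpp1 (−2.03 ± 0.22) and its relative Enpp3 (−2.17 ± 0.25) were lower at the same adjusted p. The osteoclast differentiation factor gene Tnfsf11 (−1.77), the cell cycle inhibitor gene Cdkn1a (−1.15) and the parathyroid hormone receptor gene Pth1r (−1.52), named after their values were seen, made up the 6. With eGFP scaling Spp1 alone of the 6 kept its call (−2.94), and with stroma scaling Spp1 and Enpp3 did, while Cdkn1a and Pth1r also lost theirs without Hes1-derived replicate 3. Cyp27a1, which hydroxylates cholesterol and vitamin D, was higher, at 9.68 and 12.98 CPM in the Hes1-derived pair, against 2.68 and 3.29 CPM in the Fgfr3-derived pair (1.92 ± 0.38, adjusted p = 0.026), a call that ended without Hes1-derived replicate 3 (1.70) or Fgfr3-derived replicate 2 (1.80). Cyp24a1, the main degrading enzyme and a sensitive target of the receptor, had no row among the counts used here and so was not analysed.

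None of the 3 steroid receptor genes passed the test. Nr3c1, the gene of the glucocorticoid receptor, had 95.5 and 124 CPM in the Hes1-derived pair, against 95.2 and 72.9 CPM in the Fgfr3-derived pair (0.39 ± 0.24, adjusted p = 0.33). It was the single receptor with both Hes1-derived libraries above both Fgfr3-derived ones, by a margin that is small beside the spread within each group, and it kept a positive value in all 16 alternatives (0.19 to 1.33). Esr1, the gene of oestrogen receptor alpha, had 21.0 and 15.7 CPM in the Hes1-derived pair, against 38.4 and 23.1 CPM in the Fgfr3-derived pair (−0.75 ± 0.32, adjusted p = 0.17). The groups did not overlap, but Fgfr3-derived replicate 2 was 1.66-fold above replicate 3. Nr3c2, the gene of the mineralocorticoid receptor, was near the limit of measurement with 22 to 59 reads per library, and the groups overlapped at 1.06 and 1.85 CPM in the Hes1-derived pair, against 2.33 and 0.841 CPM in the Fgfr3-derived pair (−0.12, adjusted p = 0.94).

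Glucocorticoid genes gave no common direction. Of 19 tested genes of glucocorticoid metabolism and response 1 was lower and 1 higher, and the median was 0.33. Pdk4, a kinase that limits glucose oxidation, had 43.4 and 58.0 CPM in the Hes1-derived pair, against 369 and 203 CPM in the Fgfr3-derived pair (−2.50 ± 0.33, adjusted p = 0.016). Glul, the gene of glutamine synthetase, had 127 and 122 CPM in the Hes1-derived pair, against 70.1 and 59.1 CPM in the Fgfr3-derived pair (0.95 ± 0.20, adjusted p = 0.031). The Glul call held in 11 of 16 alternatives, among them a laxer threshold on the main fit, which a called gene cannot fail. It ended without Hes1-derived replicate 1, Hes1-derived replicate 3 or Fgfr3-derived replicate 2 and with stroma and eGFP scaling. The Pdk4 call ended with eGFP scaling (−1.51). Of 8 tested genes of oestrogen metabolism and response none passed (median −0.53), while DESeq2 called 1, Igfbp4, lower (−0.84, adjusted p = 0.034). The most abundant of these were Igfbp4, an IGF-binding protein gene (−0.87, adjusted p = 0.19), and Xbp1, a transcription factor of the unfolded protein response (−0.58, adjusted p = 0.15).

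Thyroid hormone receptors were represented mainly by Thra. Thra, the gene of receptor alpha and the predominant form in bone, had 32.9 and 24.6 CPM in the Hes1-derived pair, against 40.5 and 34.3 CPM in the Fgfr3-derived pair (−0.38 ± 0.25, adjusted p = 0.36). Thrb, the gene of receptor beta, had 1.67 and 1.33 CPM in the Hes1-derived pair, against 3.55 and 2.26 CPM in the Fgfr3-derived pair (−0.95 ± 0.55, adjusted p = 0.30), from 33 to 90 reads. Neither passed, although in CPM the Hes1-derived libraries were the lower ones for both. The Thra value turned positive with stroma (0.18) and eGFP scaling (0.42). Per kilobase, Thra was 42.0 and 39.4 times Thrb in the Hes1-derived pair, against 24.3 and 32.4 times in the Fgfr3-derived pair. Thra shares 263 exonic bases with Nr1d1 on the opposite strand, and since the strand setting of the counting is not given, reads there cannot be assigned to 1 of the 2 genes with certainty. Among 7 tested genes of thyroid hormone transport and response, Slc16a10, an aromatic amino acid and thyroid hormone transporter, was higher at 35.0 and 30.0 CPM in the Hes1-derived pair, against 9.27 and 12.7 CPM in the Fgfr3-derived pair (1.57 ± 0.28, adjusted p = 0.022), a call that ended without Hes1-derived replicate 3, without Fgfr3-derived replicate 2 and with eGFP scaling.

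Among the 5 retinoid receptors Rarg alone passed. Rarg encodes retinoic acid receptor gamma, the retinoic acid receptor best known from cartilage and skin, and lies at chr15:102234938-102257517 on the minus strand. It had 17.9 and 12.5 CPM in the Hes1-derived pair, against 38.2 and 38.2 CPM in the Fgfr3-derived pair, so the Fgfr3-derived libraries were nearly equal and the groups lay 2.13-fold apart at their nearest. The log2 fold change was −1.33 ± 0.27 (adjusted p = 0.027). The summed level of 14 chondrocyte markers overlapped between the groups, at 767 and 2531 CPM in the Hes1-derived pair, against 4121 and 596 CPM in the Fgfr3-derived pair. Of the 14, 12 had a negative value, none was called lower and 1 was called higher, and their part in the Rarg difference was not tested. The call ended without Hes1-derived replicate 3 (−1.09, adjusted p = 0.13), without Fgfr3-derived replicate 2 (−1.31, adjusted p = 0.073) and with stroma (−0.81) and eGFP scaling (−0.57).

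The RefSeq window before the more upstream of the 2 listed starts of Rarg (chr15:102257523-102257772, minus strand, GRCm38.p6) holds AGGTCA once, read from the opposite strand, with its first base 225 bases before the start. Capitals mark it.
Rarg: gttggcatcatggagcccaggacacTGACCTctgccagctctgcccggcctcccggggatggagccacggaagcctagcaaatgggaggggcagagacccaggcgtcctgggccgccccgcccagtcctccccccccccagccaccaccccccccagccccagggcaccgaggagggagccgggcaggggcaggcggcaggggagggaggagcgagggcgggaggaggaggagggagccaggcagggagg

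Rara, which encodes the alpha form, had 47.5 and 43.3 CPM in the Hes1-derived pair, against 47.2 and 60.2 CPM in the Fgfr3-derived pair (−0.24, adjusted p = 0.52), and its groups overlapped. The ratio of Rarg to Rara per kilobase was therefore lower in Hes1-derived libraries, at 0.476 and 0.365, against 1.02 and 0.799 in Fgfr3-derived libraries. Rarb, the beta form and itself a retinoic acid target, was measured by 58 to 122 reads and did not pass (−0.31, adjusted p = 0.75). It shares 1793 exonic bases with Top2b on the opposite strand. Rxra had 37.1 and 43.4 CPM in the Hes1-derived pair, against 73.3 and 51.8 CPM in the Fgfr3-derived pair (−0.64 ± 0.25, adjusted p = 0.14), with no overlap of the groups, and its value turned positive with stroma (0.01) and eGFP scaling (0.29). Rxrb overlapped widely, at 43.6 and 58.8 CPM in the Hes1-derived pair, against 33.2 and 84.5 CPM in the Fgfr3-derived pair (−0.20, adjusted p = 0.80). The 2.55-fold difference between the Fgfr3-derived libraries exceeded any difference between groups for this gene, and without Fgfr3-derived replicate 3 its log2 fold change was 0.68.

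Genes that make and carry retinoids changed in both directions. Of 13 tested genes of retinoid metabolism and response 4 were lower and 2 higher (median −0.99), against 6.56% and 5.24% of all tested genes. The retinol dehydrogenase gene Rdh10 (22.1 and 18.9 CPM in the Hes1-derived pair, 63.7 and 79.3 CPM in the Fgfr3-derived pair; −1.80 ± 0.23), the retinoic acid-forming enzyme gene Aldh1a3 (−2.01 ± 0.29) and the retinol carrier gene Rbp4 (−1.77 ± 0.28) were lower, with adjusted p of 0.016, 0.016 and 0.018. Tgm2, a transglutaminase gene induced by retinoic acid and the remaining lower gene, had a log2 fold change of −1.23 and was named after its value was seen. All 4 lost their calls with stroma and eGFP scaling, and Rbp4 (−1.49) and Tgm2 also without Hes1-derived replicate 3. In the opposite direction, Aldh1a1, another retinaldehyde dehydrogenase, had 35.1 and 25.99 CPM in the Hes1-derived pair, against 10.5 and 8.95 CPM in the Fgfr3-derived pair (1.65 ± 0.28, adjusted p = 0.020). Dhrs9, a short-chain dehydrogenase that also oxidizes retinol, had 21.7 and 34.4 CPM in the Hes1-derived pair, against 5.84 and 12.2 CPM in the Fgfr3-derived pair (1.64 ± 0.42, adjusted p = 0.048), and lost its call when Hes1-derived replicate 3 or Fgfr3-derived replicate 2 was left out. The Aldh1a1 call ended without Hes1-derived replicate 1 (1.42) and with eGFP scaling (2.44).

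The liver X receptors, which sense oxysterols, are encoded by 2 members, of which Nr1h3 passed the test. Nr1h3, the gene of the alpha form (chr2:91184061-91202834, minus strand), had 14.998 and 17.0 CPM in the Hes1-derived pair, against 38.2 and 27.7 CPM in the Fgfr3-derived pair (−1.04 ± 0.27, adjusted p = 0.049). This call lay at the threshold and held in 5 of 16 alternatives. Those 5 include a laxer threshold on the main fit, which a gene called there cannot fail. Nr1h2, the widely expressed beta form and second to Nr4a1 per kilobase of exon, had 174 and 155 CPM in the Hes1-derived pair, against 131 and 169 CPM in the Fgfr3-derived pair (0.13, adjusted p = 0.74), with overlapping groups. Per kilobase the ratio of Nr1h2 to Nr1h3 was 12.4 and 9.73 in the Hes1-derived pair, against 3.66 and 6.53 in the Fgfr3-derived pair. Of 11 tested target genes of these receptors 1 was lower, the fatty acid desaturase gene Scd2, at 95.4 and 98.1 CPM in the Hes1-derived pair, against 259 and 221 CPM in the Fgfr3-derived pair (−1.31 ± 0.20, adjusted p = 0.018), and none was higher. The list's median was −0.23, and the Scd2 call ended without Hes1-derived replicate 3 (−1.33, adjusted p = 0.063) and with stroma (−0.71) and eGFP scaling (−0.44).

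The fatty acid receptors were scarce. Ppara, a regulator of fatty acid oxidation, had 16 to 75 reads per library and Ppard, a related receptor found in most tissues, 44 to 88 reads. Neither passed (Ppara −0.67, adjusted p = 0.60; Ppard −0.59, adjusted p = 0.50). Hes1-derived replicate 1 had 3.96 times the Ppara level of replicate 3, and without replicate 3 the log2 fold change was 0.01. Among 16 tested PPAR target genes Pdk4, given above, was lower, and Cd36, a fatty acid transporter gene also used by macrophages and platelets, was higher, at 157 and 115 CPM in the Hes1-derived pair, against 42.4 and 36.5 CPM in the Fgfr3-derived pair (1.79 ± 0.24, adjusted p = 0.016). Cd36 passed in all 16 alternatives. These include a laxer threshold on the main fit, which a gene called there cannot fail.

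Of the 13 orphan receptors 4 were lower in Hes1-derived cells (6.56% of all tested genes were lower), a pair of them from the circadian clock. Nr1d1 (chr11:98767932-98775333, minus strand) and Nr1d2 (chr14:18204054-18239127, minus strand) encode the haem-binding repressors REV-ERB alpha and beta, which act on the clock activator gene Arntl. Nr1d1 had 25.6 and 26.8 CPM in the Hes1-derived pair, against 61.3 and 47.1 CPM in the Fgfr3-derived pair (−1.05 ± 0.23, adjusted p = 0.033). Nr1d2 had 25.7 and 34.2 CPM in the Hes1-derived pair, against 81.5 and 57.6 CPM in the Fgfr3-derived pair (−1.22 ± 0.27, adjusted p = 0.032). The 2 genes kept a similar proportion in every library, with an Nr1d2 to Nr1d1 ratio per kilobase of 0.585 and 0.745 in the Hes1-derived pair, against 0.776 and 0.714 in the Fgfr3-derived pair. Each call ended when Hes1-derived replicate 1, Hes1-derived replicate 3 or Fgfr3-derived replicate 2 was left out, with values of −1.08 to −0.83 for Nr1d1 and −1.44 to −0.92 for Nr1d2, and with stroma (−0.43 and −0.55) and eGFP scaling (−0.16 and −0.26). Per 1000 eGFP reads the groups overlapped for both genes.

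The window before the start of Nr1d2 (chr14:18239107-18239356, minus strand, GRCm38.p6) is shown since NR1D receptors themselves recognize AGGTCA with a flanking A/T-rich stretch. It holds AGGTCA once, in capitals, beginning 77 bases before the start, and the corresponding window of Nr1d1 holds none. The search covered the hexamer alone and not the flanking stretch, so the match is not shown to be an NR1D site.
Nr1d2: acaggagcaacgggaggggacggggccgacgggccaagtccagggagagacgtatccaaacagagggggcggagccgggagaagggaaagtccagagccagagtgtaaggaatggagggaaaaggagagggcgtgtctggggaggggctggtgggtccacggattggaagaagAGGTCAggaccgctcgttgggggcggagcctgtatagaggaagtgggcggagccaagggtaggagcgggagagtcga
Of 37 windows of 26 receptors 5 held AGGTCA, against 14% of 32851 windows of all genes, so a match was about as frequent before receptor genes as before others. The E-box was in 2 of the 37 windows (6.02% of all windows) and TGACGTCA in none (1.55%).

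Rora, whose product activates the sites that NR1D receptors repress, had 17.5 and 21.3 CPM in the Hes1-derived pair, against 44.8 and 20.6 CPM in the Fgfr3-derived pair (−0.75 ± 0.38, adjusted p = 0.23). Fgfr3-derived replicate 2 stood alone at the high level, 2.17-fold above replicate 3. Rora passed without Fgfr3-derived replicate 3 (−1.16, adjusted p = 0.039) and stood at −0.07 without replicate 2. Of 17 tested core clock and clock output genes 1 was lower and 1 higher, with a median of −0.20 (6.56% of all tested genes were lower and 5.24% higher). Arntl (also called Bmal1) had 72.8 and 68.8 CPM in the Hes1-derived pair, against 39.1 and 40.1 CPM in the Fgfr3-derived pair (0.84 ± 0.20, adjusted p = 0.041). Bhlhe40, a clock-linked repressor gene, had 58.1 and 99.0 CPM in the Hes1-derived pair, against 210.4 and 179 CPM in the Fgfr3-derived pair (−1.31 ± 0.29, adjusted p = 0.032). The Arntl call ended in each of the 4 fits that left out a library and with stroma and eGFP scaling. Whether its value is linked to those of Nr1d1 and Nr1d2 was not tested. The Bhlhe40 call ended without Hes1-derived replicate 1 (−0.98), without Fgfr3-derived replicate 2 (−1.17), with stroma scaling (−0.64) and with eGFP scaling (−0.31). The other clock genes, the Per and Cry genes, Dbp and Tef among them, did not pass. The time of day at which mice were dissected is not given in the labels used here, and its part in these values was not tested.

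The COUP and testicular receptor group gave the remaining calls. Nr2c1 (chr10:94148023-94197211, plus strand), the gene of testicular receptor 2, had 16.8 and 11.7 CPM in the Hes1-derived pair, against 40.5 and 29.8 CPM in the Fgfr3-derived pair (−1.31 ± 0.30, adjusted p = 0.035). Its partner Nr2c2, the gene of testicular receptor 4, had 44.6 and 60.2 CPM in the Hes1-derived pair, against 52.3 and 39.6 CPM in the Fgfr3-derived pair (0.19, adjusted p = 0.67), with overlapping groups. The ratio of Nr2c1 to Nr2c2 per kilobase was 0.661 and 0.342 in the Hes1-derived pair, against 1.36 and 1.33 in the Fgfr3-derived pair. Nr2c2 shares 4590 exonic bases with Mrps25 on the opposite strand in the full annotation. The Nr2c1 call ended without Hes1-derived replicate 3 (−1.07, adjusted p = 0.16), without Fgfr3-derived replicate 2 (−1.05, adjusted p = 0.13) and with stroma (−0.74) and eGFP scaling (−0.51).

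Nr2f6 (chr8:71374123-71381960, minus strand), which encodes a COUP-related repressor studied chiefly in T cells, was the most abundant of this group. It had 67.1 and 43.4 CPM in the Hes1-derived pair, against 105 and 151 CPM in the Fgfr3-derived pair (−1.21 ± 0.29, adjusted p = 0.041). The groups lay 1.56-fold apart at their nearest, about the same as the 1.55-fold spread within the Hes1-derived group. The call ended without Hes1-derived replicate 3 (−0.93, adjusted p = 0.18), without Fgfr3-derived replicate 3 (−0.88, adjusted p = 0.091) and with stroma (−0.76) and eGFP scaling (−0.52). Nr2f6 shares 1622 exonic bases with Ocel1 on the opposite strand, whose own row stood at 22.2 and 14.3 CPM in the Hes1-derived pair, against 6.90 and 17.1 CPM in the Fgfr3-derived pair. Nr2f1 and Nr2f2, the COUP transcription factors of mesenchyme and vessels, were scarce. Nr2f1 had 0.572 and 0.725 CPM in the Hes1-derived pair, against 1.42 and 2.03 CPM in the Fgfr3-derived pair (−1.40 ± 0.66, adjusted p = 0.21), and Nr2f2 had 2.11 and 1.85 CPM in the Hes1-derived pair, against 4.81 and 3.13 CPM in the Fgfr3-derived pair (−1.001 ± 0.49, adjusted p = 0.22). In both, the Hes1-derived libraries were the lower ones, yet neither passed at 13 to 122 reads. Pericyte and smooth muscle markers, 7 of 10 of them lower, summed to 239 and 154 CPM in the Hes1-derived pair, against 543 and 599 CPM in the Fgfr3-derived pair, and their part in these values was not tested.

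The NR4A receptors, products of immediate early genes that act without a classical ligand, did not pass. Nr4a1 (Nur77) was the most abundant receptor in every library and took 41.3% and 32.4% of all receptor reads in the Hes1-derived pair, against 35.6% and 33.4% in the Fgfr3-derived pair. It had 568 and 396 CPM in the Hes1-derived pair, against 666 and 603 CPM in the Fgfr3-derived pair (−0.40 ± 0.27, adjusted p = 0.37). Nr4a2 (Nurr1) had 37.8 and 46.0 CPM in the Hes1-derived pair, against 41.0 and 31.4 CPM in the Fgfr3-derived pair (0.21, adjusted p = 0.61), with overlapping groups. Nr4a3 (Nor1) was the scarcest receptor, at 10 and 23 reads in the Hes1-derived pair, against 60 and 13 reads in the Fgfr3-derived pair.

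Of 20 tested immediate early genes 5 were lower and none higher in Hes1-derived cells (median −0.45), against 6.56% and 5.24% of all tested genes. The bZIP factor gene Maff (−1.78 ± 0.26), the Krüppel-like factor gene Klf4 (−1.40 ± 0.21) and Fosb (−0.99 ± 0.20) had the smallest p, with adjusted p of 0.016, 0.017 and 0.027. Fosl1 (−2.12) and Klf6 (−1.19), named after their values were seen, were the others. All 5 lost their calls with stroma and eGFP scaling. Without Hes1-derived replicate 3 the calls of Maff, Fosb and Klf6 ended, without Hes1-derived replicate 1 those of Fosb and Klf6, and without Fgfr3-derived replicate 2 those of Fosb, Fosl1 and Klf6, with Fosb values from −1.02 to −0.92 in these fits. Genes of this list are also known to respond to tissue dissociation.

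Nr6a1, the gene of germ cell nuclear factor, had 3.12 and 3.39 CPM in the Hes1-derived pair, against 7.29 and 4.74 CPM in the Fgfr3-derived pair (−0.89 ± 0.43, adjusted p = 0.22). Esrra, the gene of oestrogen-related receptor alpha and a regulator of mitochondrial genes, was among the steadiest members, with 23.0 and 21.2 CPM in the Hes1-derived pair, against 18.6 and 23.4 CPM in the Fgfr3-derived pair (0.08, adjusted p = 0.88; range over the alternatives −0.06 to 0.88).

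**Figure D2:**
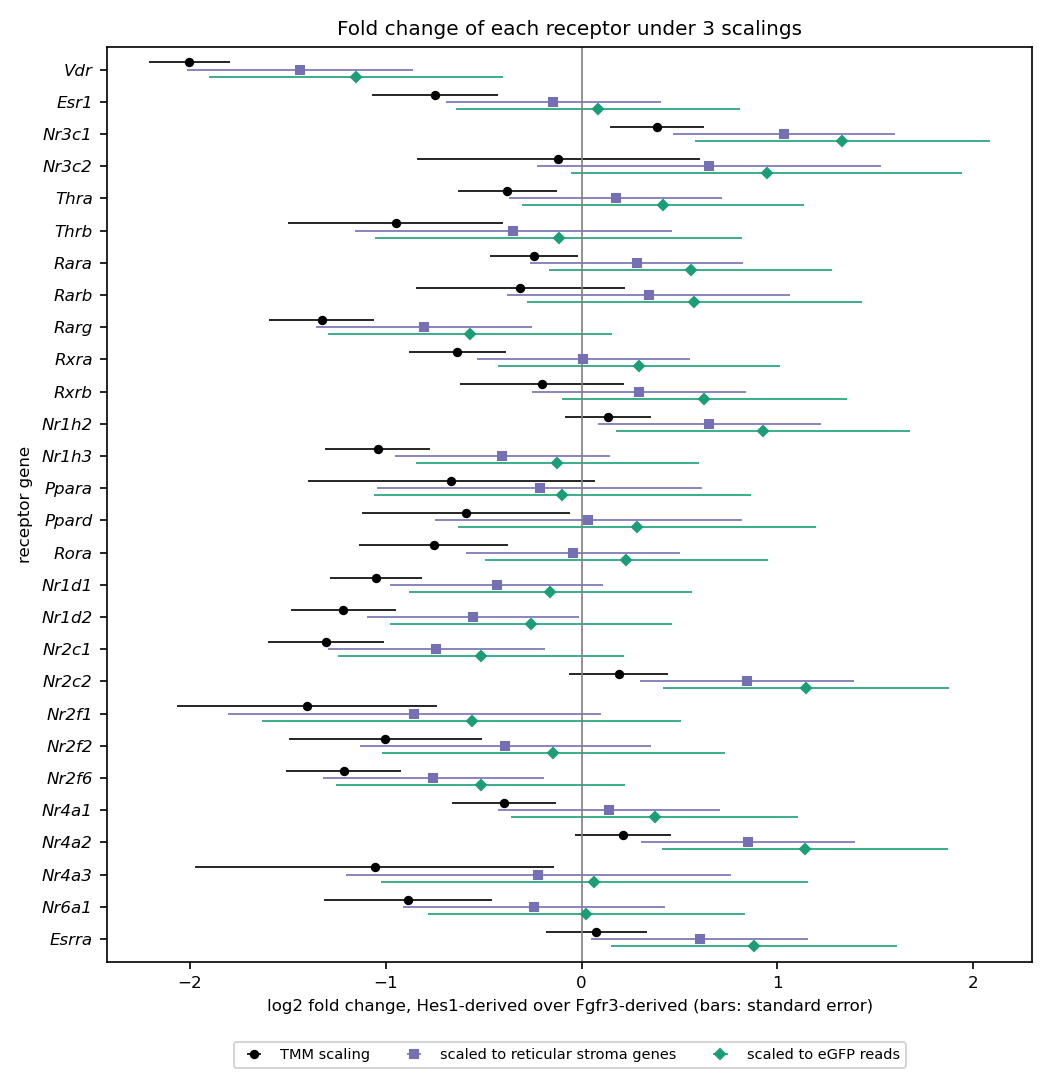
Log2 fold change, Hes1-derived over Fgfr3-derived, of each receptor with its standard error under TMM scaling (black), scaling to reticular stroma genes (purple) and scaling to eGFP reads (green). Under TMM scaling 23 of 28 values lie below 0, against 15 with stroma scaling and 11 with eGFP scaling, and Vdr is the lowest under all 3.

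Further receptors outside the 28 were read from 14 rows, 5 of which could be tested, and none passed. Pparg, the adipogenic receptor, was the most abundant of them, with 71.2 and 43.8 CPM in the Hes1-derived pair, against 136 and 80.0 CPM in the Fgfr3-derived pair (−0.91 ± 0.34, adjusted p = 0.12), and it passed without Fgfr3-derived replicate 3 (−1.20, adjusted p = 0.041). Among 30 coregulator and chaperone genes 1 passed, Ncoa4, at 616 and 528 CPM in the Hes1-derived pair, against 226 and 212 CPM in the Fgfr3-derived pair (1.39 ± 0.23, adjusted p = 0.019). Ncoa4 was first described as a nuclear receptor coactivator and is also the ferritin receptor used by erythroid cells. Erythroid markers were higher in the same libraries, and their part in the Ncoa4 value was not tested. The Ncoa4 call ended with eGFP scaling (2.21, adjusted p = 0.086). The median of the coregulator list was 0.03. Over the 154 tested genes of all 11 such lists 18 were lower and 8 higher, that is, 11.7% and 5.19%, against 6.56% and 5.24% of all tested genes.

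**Figure D3:**
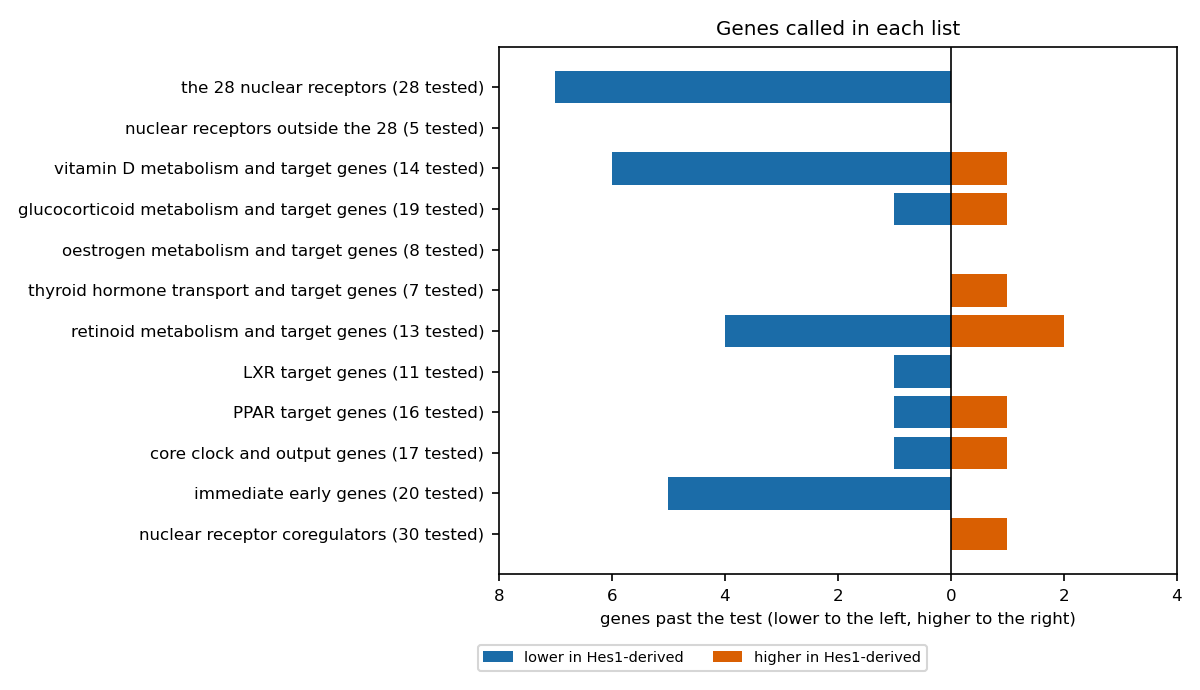
Number of genes past the test among the 28 receptors and in each of the 11 pathway lists, lower in Hes1-derived cells to the left and higher to the right, with the number tested in parentheses. The receptors (7 lower) and the vitamin D list (6 lower, 1 higher) have the most lower calls of those drawn, and the oestrogen list and the receptors outside the 28 have none.

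Levels of different receptors were compared per kilobase of exon. Nr4a1 led with 180 ± 45.4 CPM per kilobase in the Hes1-derived pair and 237 ± 16.8 in the Fgfr3-derived pair (SD, n = 2), followed by Nr1h2 with 81.9 ± 6.63 in the Hes1-derived pair and 74.6 ± 13.5 in the Fgfr3-derived pair and Nr2f6 with 24.9 ± 7.56 in the Hes1-derived pair and 57.7 ± 14.9 in the Fgfr3-derived pair. Vdr took rank 6 among the 28 in Hes1-derived libraries, at 11.7 ± 0.53 CPM per kilobase, and rank 4 in Fgfr3-derived libraries, at 46.8 ± 4.32. In Fgfr3-derived libraries Vdr and Nr2f6 did not differ beyond their spread, while in Hes1-derived libraries Vdr lay within the spread of Nr4a2 (11.2 ± 1.55) and close to Rara (10.6 ± 0.68). Nr3c1 moved in the other direction, with rank 5 in Hes1-derived (16.8 ± 3.10) and rank 9 in Fgfr3-derived libraries (12.8 ± 2.41). In all, 13 receptors averaged at least 10 CPM per kilobase over the 4 libraries and 9 averaged under 1, namely Rarb, Nr6a1, Ppard, Nr2f2, Ppara, Thrb, Nr2f1, Nr3c2 and Nr4a3. The order inside this low set is not resolved at these read numbers.

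**Figure D4:**
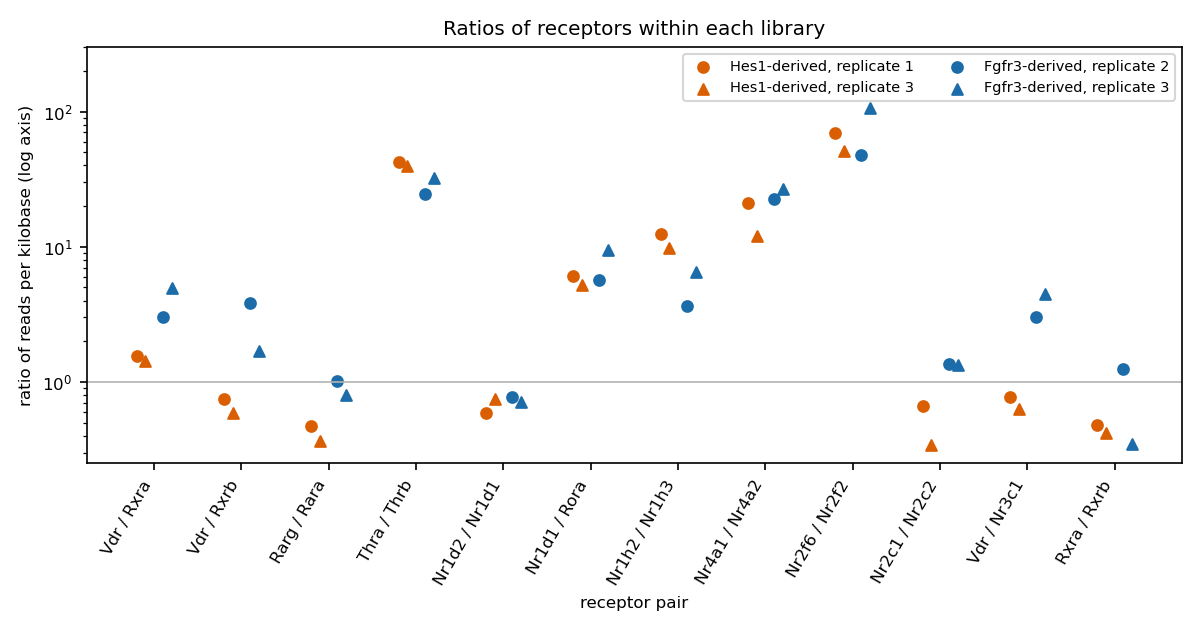
Ratio of 12 receptor pairs in reads per kilobase of exon within each library (log axis), for Hes1-derived (orange) and Fgfr3-derived libraries (blue). All Hes1-derived values lie below all Fgfr3-derived values for Vdr to Rxra, Rxrb and Nr3c1, Rarg to Rara, Nr2c1 to Nr2c2 and Nr4a1 to Nr4a2. Thra to Thrb and Nr1h2 to Nr1h3 lie above, and the other pairs, Nr1d2 to Nr1d1 among them, overlap. Vdr, Rarg and Nr2c1 were themselves called lower, so their ratios partly restate those calls.

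Against the reporter, 3 receptors had both Hes1-derived libraries below both Fgfr3-derived ones, namely Vdr, Rarg and Nr2c1. These are 10.7% of the members, near the 8% of all tested genes that did so. Rarg had 2.68 and 3.91 reads per 1000 eGFP reads in the Hes1-derived pair, against 4.12 and 5.65 in the Fgfr3-derived pair. Nr2c1 had 2.51 and 3.65 in the Hes1-derived pair, against 4.37 and 4.42 in the Fgfr3-derived pair. Another 4, Nr3c1, Nr1h2, Nr2c2 and Nr4a2, stood above (14.3% of the members, against 46% of all tested genes). Of these Nr3c1 was the widest, with 14.3 and 38.7 reads per 1000 eGFP reads in the Hes1-derived pair, against 10.3 and 10.8 in the Fgfr3-derived pair. The Hes1-derived libraries lay further apart on this scale than in CPM for Vdr and Nr3c1, and their eGFP levels were 6669 and 3204 CPM. The ratio of Vdr to Nr3c1 per kilobase, which needs no scaling, was 0.774 and 0.634 in the Hes1-derived pair, against 3.00 and 4.47 in the Fgfr3-derived pair. This pair sets the receptor with the lowest log2 fold change (−2.00) against the one with the highest (0.39). Its separation therefore restates those values and is no further result.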

How the data were processed

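Whole read counts per gene symbol were deposited by the authors for 4 libraries. Tools listed in the submitters' processing notes, with no role or order, are TopHat2 2.0.13 and Bowtie2 2.2.1, HTSeq, Cufflinks, Cuffdiff, FastQC and DESeq2, and the build is mm10. The annotation and strand setting are not given in the sources used here. The deposited signal values are the same counts multiplied by 1 constant per library, and another deposited table holds log2 values of the regularized kind, per its name.

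All 14330 genes kept by the edgeR filter (minimum count 10) were fitted with edgeR 4.0.16 (R 4.3.3), TMM factors and robust quasi-likelihood F tests, with Benjamini-Hochberg adjustment over all of them and a threshold of 0.05. Only the receptors and genes of the written lists are printed. The standard error of a log2 fold change was taken as its size over the root of the F statistic. Before sharing across genes 2 residual degrees of freedom remain. The biological coefficient of variation was 27.8%, so replicates differed by more than counting error.

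Exon lengths and positions came from GENCODE M21 (GRCm38), with lengths from its basic transcript set, and promoter windows from RefSeq (GRCm38.p6). A protein table was not used here. The alternatives were other scalings, DESeq2 1.42.0, limma 3.58.1 (voom on counts, and trend on log2 of the deposited signal values plus 1), other filters, non-robust dispersions, an adjusted p under 0.10 and leaving out each library. The adjusted p under 0.10 was read from the main fit, so a gene called there cannot fail it. Counts of alternatives passed and of values kept include it. From each list up to 3 genes per direction with the smallest p were named, else the 2 most abundant, and others only where stated, and 1 gene this rule names is not reported here. The members, lists and tests were chosen with earlier results of these data known.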

Additional observations from a re-analysis of the deposited data

How the results depend on the processing

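No paired analysis was possible because the groups share 1 replicate number. Of 14330 genes 1691 passed in all (940 lower and 751 higher in Hes1-derived cells), against 1096 with stroma scaling (132 lower, 964 higher), 343 with eGFP scaling (19 lower, 324 higher), 2986 with DESeq2, 3075 at an adjusted p under 0.10 and 424 to 2223 with a library left out. Of the receptors 7 passed, against 0 with stroma scaling, 0 with eGFP scaling and 1 to 7 with a library left out. Of the pathway genes 26 passed, against 11 with stroma scaling, 5 with eGFP scaling, 41 with DESeq2, 42 at an adjusted p under 0.10 and 13 to 36 with a library left out. A fit without a library leaves its group with 1 library, which is assumed to vary like the others. The log2 fold change changed sign with eGFP scaling for Esr1 (0.086), Nr3c2 (0.95), Nr4a1 (0.37), Nr4a3 (0.066), Nr6a1 (0.025), Ppard (0.29), Rara (0.56), Rarb (0.58), Rora (0.23), Rxra (0.29), Rxrb (0.63), Thra (0.42) and Xbp1 (0.30). With stroma scaling it did so for Nr3c2 (0.65), Nr4a1 (0.14), Ppard (0.036), Rara (0.28), Rarb (0.34), Rxra (0.0096), Rxrb (0.29) and Thra (0.18), and with limma for Nr3c2 (0.0202 by voom, 0.0206 by trend). With a library left out the ranges that crossed 0 were −0.063 to 0.30 for Esrra, −0.024 to 0.38 for Nr1h2, −0.62 to 0.81 for Nr3c2, −1.73 to 0.48 for Nr4a3, −0.72 to 0.37 for Rarb, −0.70 to 0.68 for Rxrb, −0.041 to 0.43 for Nr2c2 and −1.96 to 0.013 for Ppara. None of these genes had passed the test. Stroma and eGFP scaling shift all genes together (median of all tested genes by 0.58 and 0.86), which sets the sign changes under them, and the cause of the others was not tested. For single genes, receptors and named pathway genes together (6 pathway genes added after their values were seen), 770 values kept direction and side of the threshold, 104 lost their call, 32 changed sign and 3 gained a call. In 6 receptors no library held 100 reads, which limits what can be read from them.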

Other observations

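The libraries of a group differed from each other less than from the other group over the 28 receptors. In the deposited regularized log2 values, the root of the mean squared difference was 0.249 between the Hes1-derived libraries, 0.384 between the Fgfr3-derived libraries and 0.515 to 0.66 between libraries of different groups. Over all tested genes it was 0.307 between the Hes1-derived libraries, 0.362 between the Fgfr3-derived libraries and 0.478 to 0.664 between groups. The spread within a group exceeded 1.5-fold for 4 receptors in Hes1-derived and for 10 receptors in Fgfr3-derived libraries. The largest of these spreads were in Nr4a3 (4.76-fold), Nr3c2 (2.77-fold) and Rxrb (2.55-fold) in Fgfr3-derived libraries and in Ppara (3.96-fold) in Hes1-derived libraries.

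The 28 receptors together took 0.138% and 0.128% of reads in Hes1-derived libraries, against 0.182% and 0.176% in Fgfr3-derived libraries. Without Nr4a1 their summed level was 808 and 827 CPM in the Hes1-derived pair, against 1203 and 1200.2 CPM in the Fgfr3-derived pair. Vdr (49.3 and 52.6, against 191 and 218) and Nr2f6 (67.1 and 43.4, against 105 and 151) are part of these sums. The sums hold for the usual scaling, and a group difference relative to eGFP was not tested for them. Per 1000 eGFP reads the groups overlapped for 21 of the 28 receptors.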
